A study of Mus musculus with 2 samples.

Results

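The genes described here code for the factors that turn a loaded helicase into a moving replication fork and lay down the first primers. They are the 4 GINS subunit genes Gins1 to Gins4, Cdc45, and the 4 genes of the DNA polymerase alpha-primase complex, Pola1, Pola2, Prim1 and Prim2. They were chosen by name from a list of E2F1 binding regions, by the gene symbol the authors gave each region. The older name Cdc45l, also searched, had no entry of its own. All 9 genes were found, of 5587 gene symbols in the list.

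The regions come from chromatin immunoprecipitation followed by sequencing (ChIP-seq), which recovers the DNA bound by a protein with an antibody. Hepatocytes, which make up most of the liver's mass, were kept in primary culture from mice of strain C57Bl6J. They were infected with the adenovirus Ad-E2F1 and harvested 36 h later. An antibody against E2F1 (c-20) gave the ChIP record, and chromatin of the same kind of cells without antibody gave the input record. Both groups carry the vector, and cells without it were not analysed here. The values therefore describe infected cells and do not separate E2F1 made from the vector from the cell's own E2F1. How much E2F1 the vector added is not known here. The labels name neither the promoter that drives E2F1 in the vector nor the age of the mice. Expression was not measured, so the labelled cell type was not checked against markers. The labels give 1 record of each kind, and the series text speaks of 2 replicates that each combine 2 ChIPs. The single list of peaks holds no replicates. No value below therefore has a replicate error, and no test between samples was possible. Library depth is unknown, since neither the labels nor the list give read totals.

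DNA replication starts where the ring-shaped helicase MCM2-7 has been loaded on DNA in an inactive form. Cdc45 and the GINS complex join it to make the active helicase, called CMG after Cdc45, MCM and GINS. Polymerase alpha-primase then makes the RNA-DNA primers that the other polymerases extend, on the leading strand at the start and again for each Okazaki fragment. E2F1 is a transcription factor known for switching on genes of S phase, among them many replication genes. Hepatocytes in the adult liver are mostly quiescent.

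Promoter sequences were read for the 5 of these genes that the RefSeq promoter table (GRCm38.p6) held: Gins3, Pola1, Prim1, Cdc45 and Pola2. They are shown because they are the DNA next to which the peaks below were listed. The other genes are Gins1, Gins2, Gins4 and Prim2. Each line gives the 180 bases before the annotated start, 5′ to 3′ on the strand of the gene. Capitals mark letters that match an E2F-type motif or the box CCAAT, known as a binding box of NF-Y. The peaks are on the mouse build mm9, and no position was carried over between builds.
Gins3, chr8:95633379-95633558, plus strand: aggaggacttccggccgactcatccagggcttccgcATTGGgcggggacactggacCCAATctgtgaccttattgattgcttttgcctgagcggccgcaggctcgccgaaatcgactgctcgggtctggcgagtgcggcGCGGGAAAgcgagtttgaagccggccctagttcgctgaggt
Pola1, chrX:93632156-93632335, minus strand: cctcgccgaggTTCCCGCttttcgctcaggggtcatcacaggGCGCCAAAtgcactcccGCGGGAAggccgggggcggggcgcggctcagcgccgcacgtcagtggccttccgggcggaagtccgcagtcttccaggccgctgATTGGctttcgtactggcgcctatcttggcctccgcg
Prim1, chr10:128015035-128015214, plus strand: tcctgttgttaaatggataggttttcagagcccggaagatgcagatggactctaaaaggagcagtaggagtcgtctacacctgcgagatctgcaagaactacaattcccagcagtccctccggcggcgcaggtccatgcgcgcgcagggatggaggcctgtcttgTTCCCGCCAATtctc
Cdc45, chr16:18811973-18812152, minus strand: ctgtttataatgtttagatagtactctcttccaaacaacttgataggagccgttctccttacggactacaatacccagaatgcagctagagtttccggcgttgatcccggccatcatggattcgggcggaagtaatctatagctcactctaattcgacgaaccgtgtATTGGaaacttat
Pola2, chr19:5964207-5964386, minus strand: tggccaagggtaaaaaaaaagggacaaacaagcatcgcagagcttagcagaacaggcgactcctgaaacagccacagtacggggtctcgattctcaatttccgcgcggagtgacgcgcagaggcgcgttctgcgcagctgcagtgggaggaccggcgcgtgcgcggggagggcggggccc

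In the stretch searched, Gins3, Pola1 and Prim1 held an E2F-type motif before the start, and Cdc45 and Pola2 did not. The E2F consensus was searched on both strands as TTTGGCGC, TTTCCCGC, TTTCGCGC and TTTGCCGC, and again by the last 7 letters of each. An 8-letter match lay in 2 of the 5 promoters, at Gins3 and Pola1. Of all 32851 promoters of the same length (250 bases before to 50 after a start) in the table, 2.26% held one. With 7 letters the count was 3 of 5 against 9.57% of all promoters. Among the 2910 promoters of genes that had a listed E2F1 promoter peak, the shares were 8.18% and 26.6%.

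In Gins3 the motif was read from the opposite strand as GCGGGAAA at positions -41 to -34, where -1 is the last base before the start. Pola1 carried 3 such matches upstream, TTCCCGC at -169, GCGCCAAA at -138 and GCGGGAA at -121, and another at 16 bases into the transcript, which is not printed. In Prim1 the match TTCCCGC at -15 to -9 ran into a CCAAT box at -9 to -5, the last C of the first being the first C of the second. The joined run TTCCCGCCAAT occurred in 7 of the 32851 promoters, Prim1 included. The run was read from the Prim1 promoter before it was counted, so this count is a description only. CCAAT, searched on both strands, was found in 4 of the 5 promoters, Pola2 being the exception, against 37.4% of all promoters and 46.3% of those of genes with a listed promoter peak. In Cdc45 a second CCAAT match spans the start from -2 to 3 and is left in lower case. Pola2 had neither motif in this window but held GGGCGG, a box known to bind Sp1, at -11 to -6. GGGCGG stood in 4 of the 5 promoters, all but Prim1, in 35.7% of all promoters and in 68.4% of those of genes with a listed promoter peak. A match is a string of letters and does not show that a factor binds there, and the absence of one says nothing on E2F1.

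All 9 genes had a listed E2F1 peak at the promoter, with the summit no more than 1000 bp away from where transcription starts (the TSS). Such a peak was listed for 2866 (13.1%) of 21900 protein-coding genes, and any peak for 24.7%. The count stayed at 9 with promoters of 500 bp (11.5% of protein-coding genes) or 5000 bp (15.3%) and with the authors' promoter class (13.2%). It was 8, without Gins4, at a false discovery rate of at most 1% (8.01%) and among peaks with at least the median score of the caller (9.35%). With the closest gene of each peak alone (11.7%) it was 7, without Cdc45 and Prim2, whose peaks are shared with a neighbour. Each of the 9 genes had 1 listed peak in all, as did 2376 (82.9%) of the 2866 protein-coding genes with a promoter peak. At 7 of the 9 the window of 301 bp around the summit held the TSS of the gene itself. At 1400 (53.6%) of all 2612 promoter peaks it held the TSS of any gene named for the peak. This wider count takes in the Cdc45 peak, through its neighbour Ufd1l. At Gins2 and Cdc45 the nearest edge of the window lay inside the gene, 66 bp and 155 bp past the TSS. The genes lie on 7 chromosomes, with Gins2, Gins3 and Gins4 on chromosome 8.

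The strength of a peak is given by the authors' fold. It is taken here as the ratio of pileup height to the background the caller expects, a reading drawn from the values, since the file does not define it. Over the 9 genes the fold ran from 5.48 at Gins4 to 24.79 at Gins2, with a median of 13.77. The median over all 2612 promoter peaks was 6.48, with quartiles of 4.87 and 9.32. Gins4 was the single member below that median. A fold of at least 10 was reached by 6 of the 9 genes (66.7%) and by 573 (21.9%) of the promoter peaks. The caller's false discovery rate was 0% at Gins2, Prim1, Pola2 and Pola1, a value that 198 (7.58%) of the promoter peaks had. All 4 of these measures (fold, tags, height and false discovery rate) were computed by the authors peak by peak, and comparisons within 1 list are descriptions without a test.

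**Figure D1:**
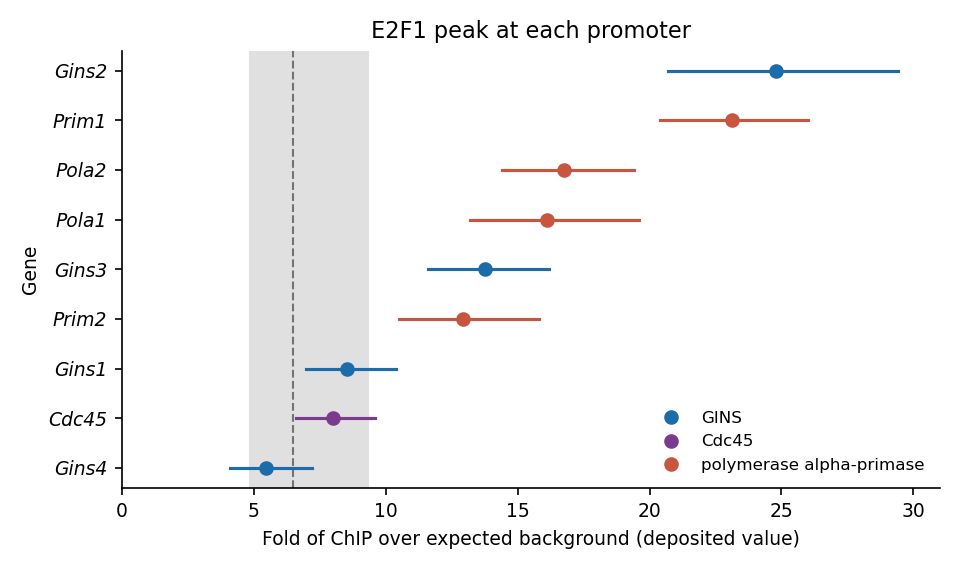
Fold of the E2F1 peak at each of the 9 promoters (points), with the 95% interval from the counting error of the pileup height (lines). The dashed line is the median of all 2612 promoter peaks, 6.48, and the grey band spans their quartiles, 4.87 to 9.32. Gins2 and Prim1 lie farthest right and Gins4 lies left of the median.

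Between the 2 complexes of the set, the GINS genes had the wider spread of fold, but not clearly of height. The tallest peak exceeded the lowest by 2.82 times in GINS and by 2.75 times in polymerase alpha-primase. GINS is a ring of 4 small subunits, also known as Psf1, Psf2, Psf3 and Sld5 for Gins1 to Gins4, that holds Cdc45 on the MCM ring. Their folds were 24.79, 13.77, 8.55 and 5.48 for Gins2, Gins3, Gins1 and Gins4, a span of 4.52 times between the highest and the lowest.

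Gins2 (ENSMUSG00000031821) had the highest fold of the 9 genes. Its peak lay on chromosome 8 from 123112838 to 123113138 (mm9), with 167 tags, a pileup height of 130 and a fold of 24.79, rank 51 of the 2612 promoter peaks. The called region of 1112 bp was the shortest of the 9. The authors also named this peak for Gse1, from whose 3′ end they place it 7547 bp downstream, and Gins2 and Gse1 are neighbours in the reference table. Directly above it in order of fold stood the promoters of Hmgb2 (25.02), a chromatin protein, and of Fhod1 and Slc9a5, which share a peak (25.17). Tuba1b (24.73), an alpha-tubulin, and Nup85 (24.62), a nuclear pore protein, followed directly below.

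Gins3 (ENSMUSG00000031669), the gene with the GCGGGAAA motif shown above, had a fold of 13.77. Its peak lay on chromosome 8 from 98157242 to 98157542, with 345 tags and a height of 144. The called region, 3013 bp, was the longest in GINS. Its fold had rank 270 of 2612 and its height rank 235, so both measures place it among the stronger promoter peaks.

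Gins1 (ENSMUSG00000027454) had a fold of 8.55, with 250 tags and a height of 100, at a window on chromosome 2 from 150735197 to 150735497. Of the promoter peaks, 70.4% had a lower fold and 79.4% a lower height.

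Gins4 (ENSMUSG00000031546) had the weakest peak of the 9 by every measure in the list. It lay on chromosome 8 from 24348011 to 24348311, with 107 tags, a height of 51 and a fold of 5.48. Its false discovery rate was 2.04%, against at most 0.47% at the other 8 genes. Only 34.5% of promoter peaks had a lower fold. Its fold was tied among 13 promoter peaks, so it had no direct neighbours in that order; Fbxo46, Arhgef7, Atg5 and 1810029B16Rik were among those at the same value. Gins2 exceeded Gins4 by 4.52 times in fold and 2.55 times in height. Their intervals from the counting error of the height (20.7 to 29.4 and 4.08 to 7.21) do not overlap. The background is held fixed in these intervals. Height over fold was 5.24 at Gins2, the lowest value in the list, and 9.31 at Gins4. Both genes were picked as the highest and the lowest fold of the 9.

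Cdc45 (ENSMUSG00000000028), the helicase cofactor that joins MCM together with GINS, had a broad peak of moderate fold. The peak lay on chromosome 16 from 18811625 to 18811925 with 347 tags, a height of 115 and a fold of 7.99. The called region of 3353 bp was the longest of the 9. The window held the TSS of Ufd1l, a gene of protein degradation that neighbours Cdc45, and the authors marked Ufd1l as the closest gene. Whether the signal belongs to the Cdc45 start, to the Ufd1l start or to both cannot be told apart in this list. The RefSeq promoter of Ufd1 (the current name of Ufd1l) held 0 matches to the E2F motifs of 8 or 7 letters, as did that of Cdc45. By tags 92.0% of promoter peaks were lower, but by fold only 65.8% were.

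The 4 genes of polymerase alpha-primase had folds of 12.94 to 23.11, all above the upper quartile of promoter peaks (9.32). Their median was 16.44, and the highest exceeded the lowest by 1.79 times. The median of the GINS genes was 11.16. With 4 genes in each complex and ranges that overlap, no difference between the complexes is claimed.

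Prim1 (ENSMUSG00000025395) codes for the catalytic subunit of primase, which makes the RNA primer. Its peak was the tallest of the 9 and lay on chromosome 10 from 127452044 to 127452344. It had 494 tags, a height of 272 and a fold of 23.11, with rank 64 by fold and 44 by height among 2612 promoter peaks. This is the promoter with the joined run TTCCCGCCAAT beside the start.

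Prim2 (ENSMUSG00000026134) codes for the large primase subunit, which helps to start the primer and hand it to the polymerase. Its peak lay on chromosome 1 from 33726438 to 33726738 with 216 tags, a height of 99 and a fold of 12.94. The window also held the TSS of 1700001G17Rik, which the authors marked as the closest gene, so the starts of Prim2 and 1700001G17Rik cannot be told apart as its source. Prim1 exceeded Prim2 by 1.79 times in fold and 2.75 times in height. Their intervals of fold, 20.4 to 26.0 and 10.5 to 15.8 with the background held fixed, do not overlap.

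Pola1 and Pola2 had nearly the same fold. Pola1 (ENSMUSG00000006678), the catalytic subunit that extends the RNA primer with DNA, had a fold of 16.12, 214 tags and a height of 103, in a window on chromosome X from 90877380 to 90877680. Pola2 (ENSMUSG00000024833), the regulatory B subunit, had a fold of 16.76, 275 tags and a height of 176, in a window on chromosome 19 from 5964047 to 5964347. The ratio of Pola2 to Pola1 was 1.04 for fold and 1.71 for height. The promoter of Pola1 held 4 E2F-type matches of 7 letters in the searched window and that of Pola2 held 0.

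**Figure D2:**
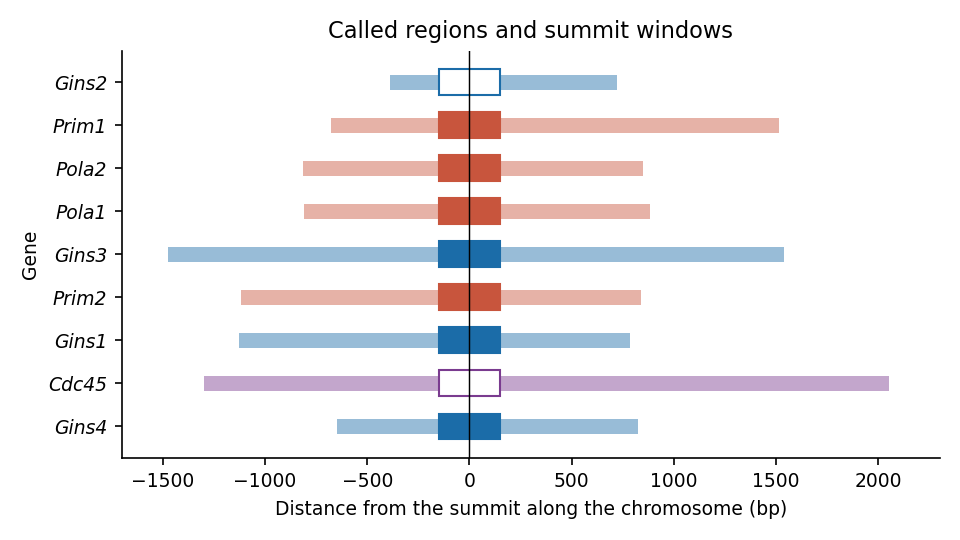
Called regions (pale bars) of the 9 peaks in bp from the summit along the chromosome, in order of fold, with the window of 301 bp around the summit (boxes). Filled boxes hold the TSS of the gene and open boxes, at Gins2 and Cdc45, lie inside the gene. Region length runs from 1112 bp at Gins2 to 3353 bp at Cdc45.

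The order of the genes changed with the measure of strength. By fold it was Gins2, Prim1, Pola2, Pola1, Gins3, Prim2, Gins1, Cdc45 and Gins4. By height it began with Prim1 (272), Pola2 (176), Gins3 (144) and Gins2 (130), and by tags with Prim1 (494), Cdc45 (347) and Gins3 (345). Gins2 held 167 tags, fewer than 7 of the other 8 genes, in the shortest region. Height divided by fold, taken here as the expected background of a peak, had a lowest value of 5.24 in the list, the pattern this reading rests on. Within 0.01 of it lay 206 of all 5667 peaks, 110 of them promoter peaks. Gins2 was at this lowest value, while Prim1 had 11.77 and Cdc45 had the highest value of the 9, 14.39. The median of promoter peaks was 9.58. Prim1 was thus 2.09 times as tall as Gins2 at a similar fold. Prim1 ranked first or second of the 9 under fold, height and tags.

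**Figure D3:**
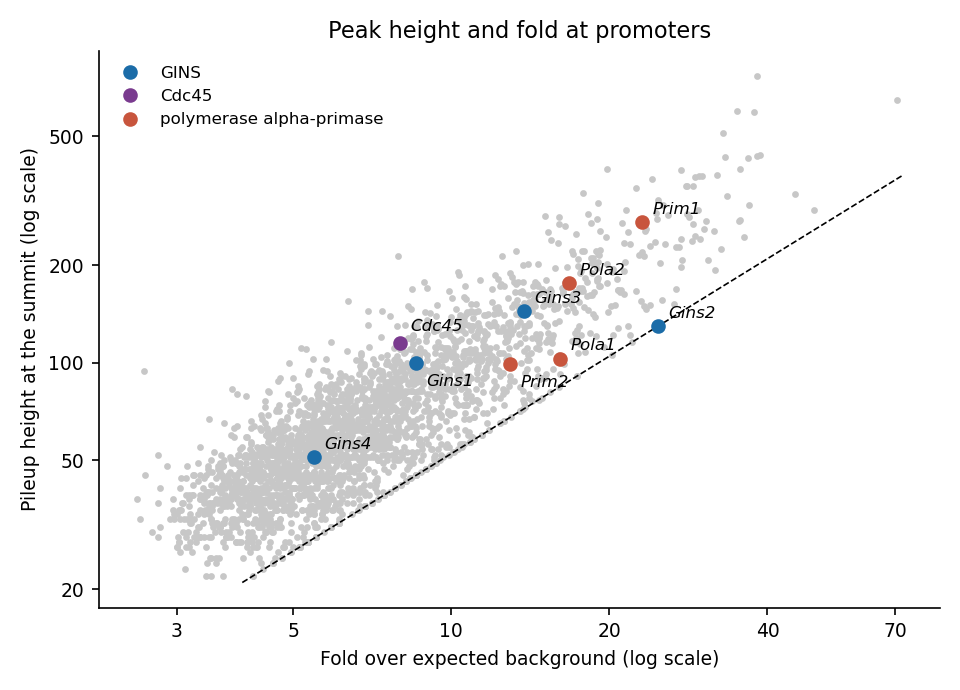
Pileup height against fold, both on log scales, for the 2612 promoter peaks (grey) and the 9 genes (coloured). The dashed line marks a height of 5.24 times the fold, the lowest ratio in the list. Gins2 lies on this line, and Cdc45 lies far above it with a ratio of 14.39.

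Neighbours in the order of fold were set against counting error. With fold read as above, height taken as a count of fragments and the background as fixed, exact Poisson 95% intervals put Gins2 at 20.7 to 29.4 and Prim1 at 20.4 to 26.0, which overlap. Pola2 (14.4 to 19.4), Pola1 (13.2 to 19.6), Gins3 (11.6 to 16.2) and Prim2 (10.5 to 15.8) each overlap with the next. Gins1 (6.96 to 10.4), Cdc45 (6.6 to 9.59) and Gins4 (4.08 to 7.21) form a further run of overlapping neighbours. The steps from Prim1 to Pola2 and from Prim2 to Gins1 are those where neighbouring intervals do not overlap. These intervals cover the counting error of the height only. The error of the background, reads copied by PCR and differences between cultures are not in them.

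Other genes of origin licensing, firing and the fork were set beside these 9. Of 50 such genes, 34 (68.0%) had a promoter peak, with 14 of 23 for loading and firing and 20 of 27 for the fork, against 13.1% of protein-coding genes. The median fold of the 34 was 12.51, close to the 13.77 of the 9 genes, and 15 of them exceeded 13.77. The 5 highest were Mcm3 of the MCM ring (38.65), the flap endonuclease gene Fen1 (30.31), Rpa2 of the single-strand binding protein (28.82), the firing factor Ticrr (23.86, listed as 5730590G19Rik) and the clamp loader subunit Chtf18 (22.96). Gins2 stood between Rpa2 and Ticrr.

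Every subunit had a promoter peak in GINS (4 of 4), polymerase alpha-primase (4 of 4), polymerase epsilon (4 of 4) and the clamp loader RFC (5 of 5). These counts take in shared peaks, as at Prim2, and weak ones. The folds of Pole (4.02) and Pole3 (4.23) lay below the lower quartile of promoter peaks (4.87). MCM2-7 had 4 of 6, lacking Mcm4 and Mcm7. The origin recognition complex (ORC) had 2 of 6, polymerase delta 3 of 4 and RPA 1 of 3. The partners of MCM in the CMG helicase, Cdc45 and GINS, were each listed, while the MCM ring itself was listed in part. The 16 genes without a promoter peak were Mcm4, Mcm7, Orc1, Orc3, Orc4, Orc5, Cdc7, Recql4, Donson, Wdhd1, Chtf8, Pold4, Rpa1, Rpa3, Pcna and Lig1. Of these, 4 had a listed peak elsewhere, at Orc5, Recql4, Wdhd1 and Lig1, the last inside the gene at 1387 bp with a fold of 16.42. The list leaves out part of the caller's peaks by rules that are not stated, so a gene without a listed peak is not shown to be unbound.

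**Figure D4:**
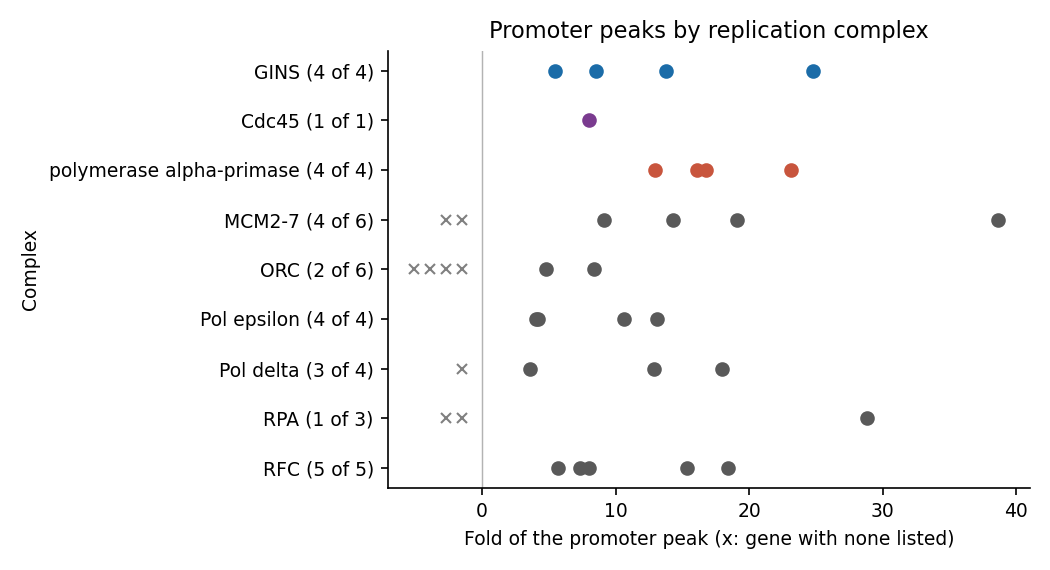
Fold of the promoter peak for each subunit (points) of 9 replication factors and complexes, with the number of subunits listed. Crosses stand for subunits with no listed promoter peak. GINS and polymerase alpha-primase have points for 4 of 4 subunits, MCM2-7 for 4 of 6 and ORC for 2 of 6.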

How the data were processed

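The series gives 1 E2F1 ChIP and 1 input record, and the authors deposited 1 peak list. Reads were aligned with Bowtie2 (2.1.0) to mm9 (NCBIM37), as far as the submitters' processing notes name tool and builds. Per the file headers, MACS called the peaks. Not given in the sources used here are its version, its settings and any pooling of replicates. The deposited columns hold tag counts of each region, the pileup height (a signal), the fold enrichment (a ratio, read here as height over expected background, which the sources do not state), a score (the negative log10 of p, times 10) and the false discovery rate in percent. They are peak values, used within the list only.

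Symbols were matched to RefSeq genes of GRCm38.p6 by symbol or unique synonym (5493 of 5587), with 21900 protein-coding genes as background. A promoter peak has its window edge within 850 bp of a TSS. Entries the authors placed past a gene's end or in its 3′ untranslated region gave no TSS distance. Counting and motif search were tested on simulated data. Python 3.11.15, pandas 2.3.3 and scipy 1.17.1 were used. The gene set, lists and motifs were chosen with earlier results of these data known. Named genes were all members, genes sharing their peaks, the 2 promoter peaks above and below the strongest and the weakest member, the 5 highest companion genes and those without a promoter peak. Alternatives covered promoter width, the authors' class, stricter peak thresholds, the closest gene, other strength measures and a shorter motif.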

Additional observations from a re-analysis of the deposited data

How the results depend on the processing

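The count of 9 genes was the same with promoters of 500 bp or 5000 bp and with the authors' promoter class. It was 8 with a false discovery rate of at most 1% or with the better-scoring peaks (those at or above the median score), and 7 with the closest gene only. The false discovery rate of at most 1% left 1755 protein-coding genes with a promoter peak, against 2866. The median fold of the genes was 14.945 under both stricter thresholds, where the median of promoter peaks was 8.43 and 7.82, and 16.12 with the closest gene only. These moves follow from the genes left out. The 50 companion genes kept a count of 29 to 37 over the 6 alternatives. Over the 9 genes, the median share of promoter peaks that were weaker was 89.6% by fold, 76.2% by tags and 89.0% by score, and 94.1% of all listed peaks were weaker by fold. Gins2 moved most, from 98.0% by fold to 49.2% by tags. E2F-type motifs were found in 2 of 5 promoters with 8 letters and 3 of 5 with 7. No paired analysis was possible because there is 1 peak list and no replicate of either record. The unknown depth limits what a missing peak can show.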

Other observations

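Prim2 and Pola1 are long genes, of 216001 and 327622 bp in GRCm38.p6, and each had its promoter peak and no listed peak in the gene body. Of 990 protein-coding genes of at least 200000 bp, 71 had a promoter peak, and 35 of these (49.3%) also had a peak inside the gene away from the promoter.

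The Pola1 peak was far from any other listed peak. The nearest, at the promoter of 4932442L08Rik with a fold of 22.12, lay 734754 bp away, and 96.9% of promoter peaks had a nearer neighbour. Gins4 followed with 377178 bp. For the remaining 7 genes the distance ran from 39385 bp at Prim1 to 122928 bp at Gins1. The median over all promoter peaks was 56988 bp, with quartiles of 21896 and 139558 bp.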
